A study of Mus musculus with 4 samples.

Results

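*Synpo2*, the host gene of the long non-coding RNA *SYISL*, and 5 genes next to it on chromosome 3 were followed across the cells of fetal mouse leg muscle. Along the chromosome the 6 genes run in the order *Pde5a*, *Usp53*, *Myoz2*, *Synpo2*, *Sec24d* and *Mettl14*. They were chosen by name for their place beside the knocked-out locus, not by a measured value, and are 6 of the 32285 features of the count table. All 6 were found by symbol and detected.

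Droplet-based single-cell RNA sequencing (10x Genomics, 3′ chemistry) was applied to leg muscles of fetuses at E18.5, shortly before birth. Wild-type (WT) mice and mice lacking *SYISL* (KO) were littermates, obtained by mating heterozygous parents, and each genotype had 2 libraries. The KO mice came from a line made for earlier work, and the exact bases removed from the locus were not given in the sources used here. The libraries are called biological replicates, but how many fetuses entered each was not stated. P-values here measure the spread between the 4 libraries.

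*SYISL* is transcribed from an intron of *Synpo2*, on the same strand. This makes *Synpo2* the host gene of the deleted RNA, and the other 5 genes its neighbours on the chromosome. Synaptopodin-2, the product of *Synpo2*, binds and bundles actin and sits at the Z-disc of striated muscle and at the dense bodies and actin bundles of smooth muscle. Myozenin-2, the product of *Myoz2*, is a Z-disc protein that holds the phosphatase calcineurin near alpha-actinin. *Pde5a* encodes the phosphodiesterase that breaks down cyclic GMP, a relaxing signal in vascular smooth muscle. *Sec24d* encodes a cargo-binding subunit of the COPII coat, which carries secreted proteins such as procollagen out of the endoplasmic reticulum. *Mettl14* encodes the partner of *Mettl3* in the enzyme that writes N6-methyladenosine on RNA, and *Usp53* a member of the ubiquitin-specific protease family that is found at tight junctions.

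On the mouse genome GRCm38 (GENCODE M21), *Synpo2* (ENSMUSG00000050315) covers chr3:123076519-123236149 on the minus strand, a length of 159.6 kb. On its 3′ side lie *Myoz2* (chr3:123006206-123035015, minus strand) at a gap of 41.5 kb, *Usp53* (chr3:122931493-122984510, minus strand) at 92.0 kb and *Pde5a* (chr3:122728947-122859374, plus strand) at 217.1 kb. On its 5′ side lie *Sec24d* (chr3:123267455-123365641, plus strand) at 31.3 kb and *Mettl14* (chr3:123368297-123386108, minus strand) at 132.1 kb. The 6 genes together span 657.2 kb. The reference annotation places 4 features inside the span of *Synpo2*, and the count table held 0 of them and none named *SYISL*. Whether intronic reads were counted was not stated, so reads of *SYISL* and of unspliced *Synpo2* cannot be told apart in the counts of *Synpo2*, and the target RNA gave no check of the genotype labels.

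The 250 bases before the RefSeq start of *Synpo2* and of *Myoz2* are shown because these are the 2 muscle proteins among the 6 and each sequence held a match to the MEF2 motif, the binding motif of the myocyte enhancer factor family. Both are read from GRCm38.p6, 5′ to 3′ on the minus strand, at chr3:123236150-123236399 for *Synpo2* and chr3:123034988-123035237 for *Myoz2*. Capitals mark the MEF2 match.
Synpo2: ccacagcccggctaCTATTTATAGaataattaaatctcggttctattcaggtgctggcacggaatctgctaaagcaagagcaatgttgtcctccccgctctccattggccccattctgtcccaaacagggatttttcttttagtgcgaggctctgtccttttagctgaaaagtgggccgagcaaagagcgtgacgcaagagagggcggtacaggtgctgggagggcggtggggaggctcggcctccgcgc
Myoz2: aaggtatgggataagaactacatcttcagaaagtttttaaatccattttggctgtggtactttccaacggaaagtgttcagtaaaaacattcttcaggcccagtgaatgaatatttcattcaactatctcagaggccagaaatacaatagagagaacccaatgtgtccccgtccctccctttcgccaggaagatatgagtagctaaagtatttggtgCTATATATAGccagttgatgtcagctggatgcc

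Counted back from the start, the match lay at bases −236 to −227 in *Synpo2* and at −33 to −24 in *Myoz2*. On either strand, 2.92% of the 32851 RefSeq promoters of the same length held a MEF2 match. Each of the 2 sequences also held 2 matches to the E-box (CANNTG), which 66.2% of all promoters held. The motif TATAAA, held by 12.4% of promoters, was found on the opposite strand in *Synpo2*, where it overlaps the MEF2 match, and the CArG motif, held by 1.47%, was found in neither. The corresponding sequences of *Pde5a* and *Sec24d* held no MEF2 match and 3 and 1 E-box matches. A match is a run of letters, not a measured binding site. *Usp53* and *Mettl14* had no entry.

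Of 41741 deposited cells, 36969 passed the study's limits on genes, unique molecular identifiers (UMIs) and mitochondrial share, from 8177 to 10461 per library, on 109653824 to 126257094 deposited UMIs per library. Kept cells had a median of 9118 to 11427 UMIs, with both WT libraries deeper per cell than both KO libraries. *Xist*, the RNA of the inactive X chromosome, stood at 1203 CPM (its UMIs scaled to 1000000 UMIs) in KO replicate 2 and at 0.0533 CPM or below in the others, so this library stands apart in its sex-linked transcripts. Libraries shared 21 to 41 cell barcodes per pair, at most 0.882% of a library. Cells were grouped by clustering in which the 6 genes took no part, and groups carry the suffix "-like" because their names rest on marker genes. A level in CPM is scaled to all UMIs of that group in that library. Since 3′ counts do not scale with transcript length, levels are compared within a gene, not between genes. Classes come from expression, so the order of classes is a description with no test. In sums over cells, fewer cells of a type and less RNA per cell cannot be told apart.

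*Synpo2* was highest in the smooth muscle of this tissue. In smooth muscle or pericyte-like cells, which expressed all 12 markers of their list above other cells, its level was 120 and 118 CPM in the WT libraries and 121 and 106 CPM in the KO libraries, or 116 ± 6.65 CPM (SD, n = 4). The lowest of these values was far above the highest of any other class. The next class, an unnamed cluster led by *Ccl11*, stood at 9.41 ± 1.06 CPM, a ratio of 12.3 between the means. Myogenic-like cells followed with 8.51 and 9.31 CPM in WT and 9.85 and 8.52 CPM in KO, and tenocyte-like cells with 7.53 ± 2.34 CPM. These 3 neighbours in the order overlapped across libraries. The level of tenocyte-like cells lay above that of fibro-adipogenic progenitor (FAP)-like cells, at 3.73 ± 0.752 CPM, in all 4 libraries. Glial-like, neutrophil-like, macrophage-like, chondrocyte-like, endothelial-like and mast-like cells followed with means of 0.997 to 2.85 CPM, each overlapping the next.

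**Figure D1:**
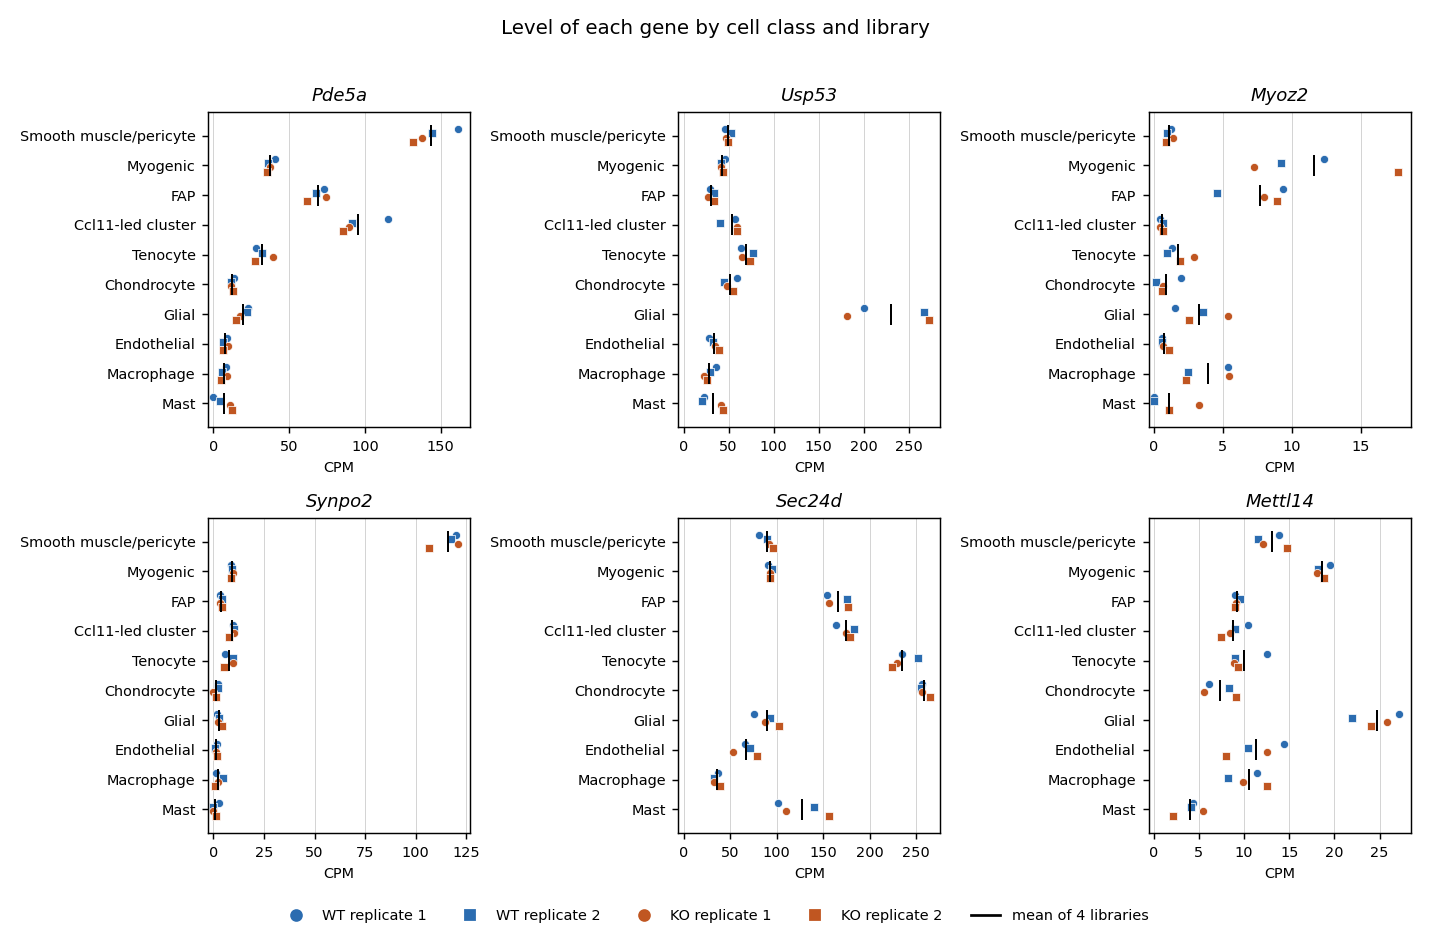
Level of each of the 6 genes in CPM (linear axis from 0) in 10 cell classes, with 1 point per library (blue WT, orange KO, circles replicate 1, squares replicate 2) and a bar at the mean of 4 libraries. *Synpo2* reaches 116 CPM in smooth muscle or pericyte-like cells and at most 9.41 CPM on average elsewhere, and *Usp53* 230 CPM in glial-like cells. WT and KO points overlap in some classes and lie apart in others.

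Within that class the level depended on the kind of cell. Vascular smooth muscle-like sub-clusters, named from the contractile genes *Myh11*, *Acta2* and others, held *Synpo2* at 297 and 282 CPM in WT and 351 and 280 CPM in KO (302 ± 33.1 CPM, SD, n = 4). Pericyte-like cells, which wrap capillaries, held it at 20.4 and 21.9 CPM in WT and 23.9 and 15.4 CPM in KO. All 4 smooth muscle values exceeded all 4 pericyte values. The sub-cluster led by *P2rx1*, *Sncg* and the elastin gene *Eln* had 389 ± 15.8 CPM over its 192 cells, and the other vascular smooth muscle-like sub-cluster, led by *Gstm1* and *Colec11*, 226 ± 53.1 CPM. The latter passed 6 of 8 vascular smooth muscle markers and 1 pericyte marker. An unnamed sub-cluster led by *Grp* had 117 ± 6.07 CPM and cycling cells 65.6 ± 9.85 CPM. A UMI of *Synpo2* was found in 295 of the 425 vascular smooth muscle-like cells, with a median of 2 and a highest count of 34, and in 74 of the 597 pericyte-like cells.

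The share of cells with a UMI gave the same order once depth was set equal. After each cell was thinned to 2000 UMIs, 36.8 ± 4.83% of vascular smooth muscle-like cells carried *Synpo2*, against 3.28 ± 1.63% of pericyte-like cells and 1.69 ± 0.379% of myogenic-like cells. Macrophage-like cells, assumed to lack the gene, gave 0.290 ± 0.201% at a median unthinned depth of 10868 UMIs, against 9712 UMIs in vascular smooth muscle-like cells. Before thinning, their 25 *Synpo2* UMIs lay in 11 of 1042 macrophage-like cells, with up to 9 in 1 cell, so this is not an even background. By count, 53.8 ± 5.66% of all *Synpo2* UMIs lay in smooth muscle or pericyte-like cells, which were 4.76% of cells, and 32.5 ± 2.15% in the 1.16% that were vascular smooth muscle-like. Myogenic-like cells, 18.1% of cells, held 15.8 ± 1.96% of the UMIs, and FAP-like cells 17.6 ± 4.58%.

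**Figure D2:**
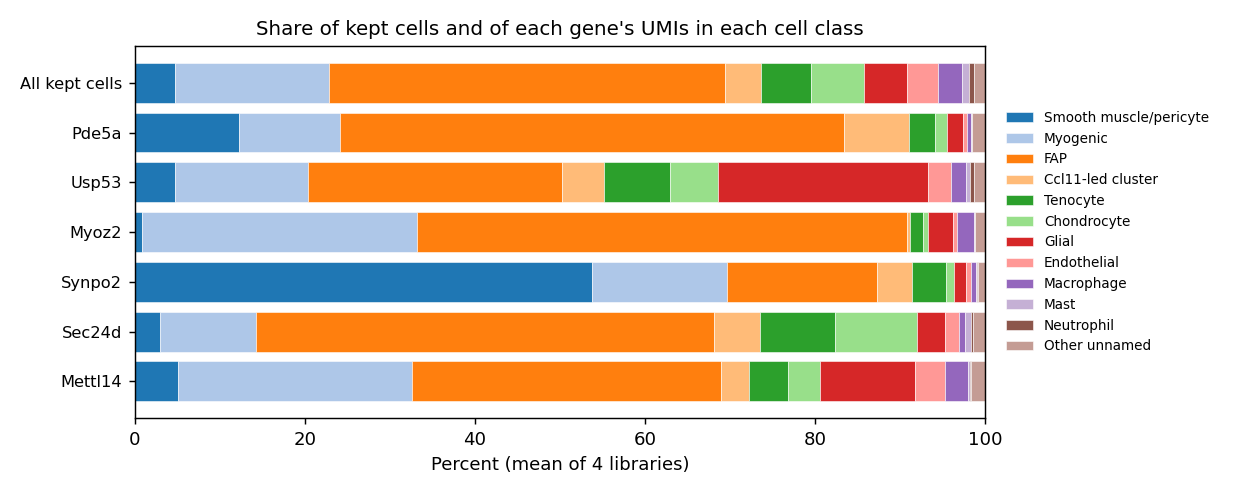
Stacked bars of the percent of kept cells and of the UMIs of each gene that fall in each cell class, as the mean of 4 libraries. Smooth muscle or pericyte-like cells (dark blue) are 4.76% of cells and hold 53.8% of *Synpo2* UMIs, and glial-like cells (red) are 5.01% of cells and hold 24.7% of *Usp53* UMIs.

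In the skeletal muscle lineage *Synpo2* stood higher in later stages. Progenitor-like cells had 7.19 ± 0.579 CPM, cycling myogenic-like cells 5.68 ± 1.65 CPM and myoblast-like cells 14.1 ± 5.78 CPM, the last with overlapping ranges against progenitors. Myotube-like cells had 70.9 and 68.2 CPM in WT and 78.1 and 153 CPM in KO. All 4 myotube values were above every myoblast value, but they rest on 80 cells and 89 UMIs, of which 62.9% came from 10 cells. KO replicate 2, the highest, supplied 61 of those UMIs. Only 11 to 31 myotube-like cells were present per library, under the minimum of 50, so genotypes were not tested there.

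*Myoz2* followed the muscle fibre and not the smooth muscle cell. In myotube-like cells its level was 1070 and 1500 CPM in WT and 599 and 743 CPM in KO, on 664 UMIs. There *Myoz2* lay lower in both KO libraries, *Synpo2* and *Sec24d* lay higher in both, and *Pde5a*, *Usp53* and *Mettl14* overlapped. *Sec24d* rests there on 9 and 1 UMIs in WT and 14 and 45 in KO, and *Synpo2* in WT replicate 2 on 5. The share of all genes that did not overlap was not computed for myotube-like cells. In the classes and sub-classes tested it was 32.4% of gene and class pairs. Myotube-like cells were too few for a test of genotypes. *Myoz2* was 3.66 ± 1.57 CPM in myoblast-like and 2.21 ± 0.868 CPM in progenitor-like cells, and vascular smooth muscle-like cells had 1.86 ± 0.758 CPM. The 2 Z-disc genes differed in where they were high, and across 40 sums of 10 classes in 4 libraries, their log2(CPM + 1) values had a Pearson correlation of 0.01. Classes of 1 library share its depth, so this is a description. The sums take myogenic-like cells as 1 class, so the few myotube-like cells, where both genes exceeded the other myogenic stages, do not stand apart. The correlation therefore says nothing on the 2 genes within muscle fibres.

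**Figure D3:**
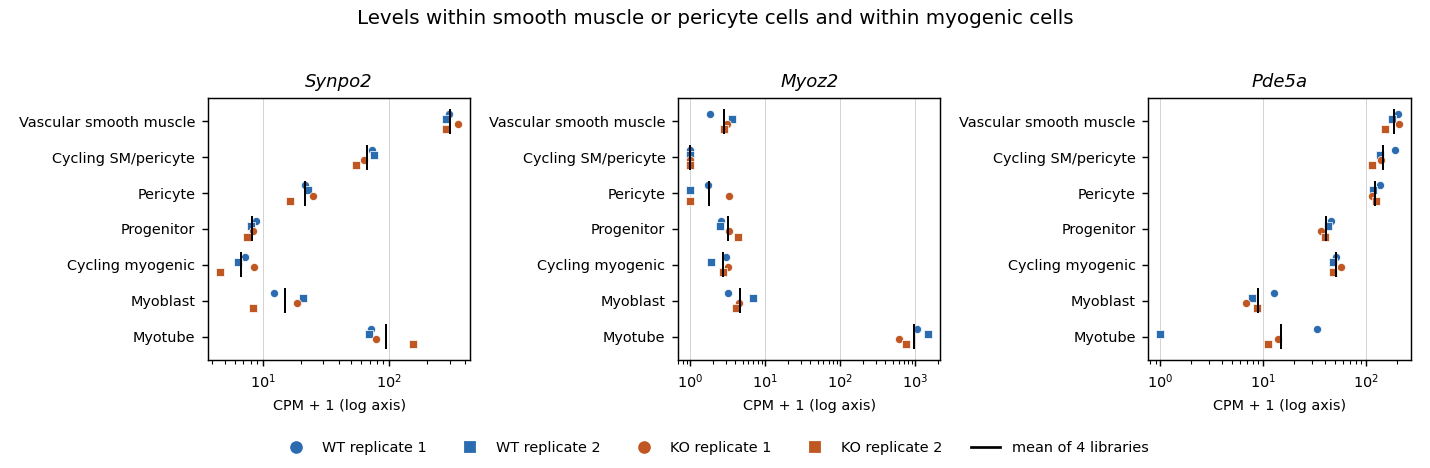
*Synpo2*, *Myoz2* and *Pde5a* in sub-classes of smooth muscle or pericyte-like cells and of myogenic-like cells, as CPM + 1 on a log axis, 1 point per library with a bar at the mean. *Synpo2* peaks in vascular smooth muscle-like cells (302 CPM) and is higher in myotube-like than in other myogenic-like cells, where *Myoz2* reaches 978 CPM on average, while *Pde5a* is at 40.0 CPM in progenitor-like and 7.99 CPM in myoblast-like cells.

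Most *Myoz2* UMIs were nevertheless found outside the myogenic class. FAP-like cells held 57.6 ± 5.56% of them and myogenic-like cells 32.3 ± 7.37%, with 25.6% in the 0.214% of cells that were myotube-like. In FAP-like cells the level was 9.37 and 4.58 CPM in WT and 7.95 and 8.94 CPM in KO, while macrophage-like cells stood at 3.90 ± 1.72 CPM and endothelial-like cells at 0.743 ± 0.244 CPM. Finer clustering (resolution 1) placed much of it in 763 cells, picked after their values were seen, which carried *Myoz2* at 93.6 CPM on average and held 28.9% of all its UMIs. There 42.9% of cells had a UMI, the 9 myotube markers summed to 5093 CPM and the 10 FAP markers to 26789 CPM, and Scrublet marked 0.262% of the cells as doublets. Over all FAP-like cells the myotube markers summed to 513 and 248 CPM in WT and 489 and 488 CPM in KO, lowest in the library where *Myoz2* was lowest. The part of these muscle transcripts in the FAP-like values of *Myoz2* was not tested.

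*Pde5a* shared its leading class with *Synpo2* but not the steepness. In smooth muscle or pericyte-like cells its level was 161 and 144 CPM in WT and 138 and 132 CPM in KO, with both KO values below both WT values. The *Ccl11*-led cluster followed with 95.5 ± 13.3 CPM, FAP-like cells with 69.2 ± 5.66 CPM and myogenic-like cells with 37.4 ± 2.24 CPM, and the first 3 did not overlap. Vascular smooth muscle-like cells had 185 ± 24.1 CPM and pericyte-like cells 122 ± 10.6 CPM, so *Pde5a* differed between them by far less than *Synpo2*. Within the myogenic lineage it had 49.9 ± 4.43 CPM in cycling, 40.0 ± 3.55 CPM in progenitor-like and 7.99 ± 2.56 CPM in myoblast-like cells. Myotube-like cells, on 11 UMIs, ran from 0 to 32.2 CPM (13.8 ± 13.5 CPM) and overlapped the myoblast-like ones. FAP-like cells, the most numerous class, held 59.3% of its UMIs. Across the 40 sums its correlation with *Synpo2* was 0.74, the highest of any pair among the 6.

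*Usp53* was highest in glial-like cells, the Schwann lineage of the muscle nerves. Their level was 201 and 266 CPM in WT and 181 and 272 CPM in KO (230 ± 46.1 CPM, SD, n = 4). In each genotype replicate 2 was the higher, and the lowest glial value still exceeded the highest of any other class. Neutrophil-like cells (70.3 ± 35.4 CPM on 85 UMIs) and tenocyte-like cells (69.6 ± 6.44 CPM) came next, and macrophage-like cells were lowest at 28.3 ± 5.67 CPM. At resolution 1 a glial-like cluster of 1482 cells had 255.2 CPM and another of 341 cells 103 CPM over the pooled libraries. After thinning to 2000 UMIs, 26.1 ± 4.23% of glial-like cells and 5.67 ± 0.772% of FAP-like cells had a *Usp53* UMI.

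*Sec24d* was led by cells that secrete matrix. Chondrocyte-like cells had 256 and 255.2 CPM in WT and 256 and 264 CPM in KO, and tenocyte-like cells 235 and 252 CPM in WT and 230 and 224 CPM in KO. The 2 classes did not overlap. The *Ccl11*-led cluster (175 ± 8.12 CPM) and FAP-like cells (166 ± 12.1 CPM) followed and overlapped each other. Mast-like cells stood at 127 ± 25.4 CPM, myogenic-like cells at 92.7 ± 1.87 CPM, and macrophage-like cells were lowest at 35.4 ± 3.40 CPM. Progenitor-like cells, at 110 ± 8.31 CPM, lay above myoblast-like cells, at 52.2 ± 2.97 CPM, in all 4 libraries.

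*Mettl14* was highest in glial-like cells. Glial-like cells had 27.2 and 22.0 CPM in WT and 25.8 and 24.0 CPM in KO, above myogenic-like cells at 18.6 ± 0.669 CPM in every library. Smooth muscle or pericyte-like cells (11.5 to 14.7 CPM), endothelial-like cells (11.3 ± 2.76 CPM) and macrophage-like cells (10.5 ± 1.90 CPM) overlapped one another. Mast-like cells, at 4.02 ± 1.34 CPM, rest on 13 UMIs, and neutrophil-like cells, at 1.76 ± 2.04 CPM, on 3 UMIs, with 0 in both KO libraries. Among myogenic-like cells the cycling ones were highest at 23.3 ± 1.16 CPM.

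The genes whose levels followed each of the 6 most closely over the same 40 sums were named by Pearson correlation. For *Synpo2* they were *Klhl23* (0.91), *Nrip2* (0.90), *Tagln* (0.89), *Map3k7cl* (0.88) and *Tpm2* (0.88), all highest in smooth muscle or pericyte-like cells. For *Pde5a* they were *Sept8* (0.92), *Mmp11* (0.91) and *Sema5a* (0.90), highest in the same class. For *Usp53* they were *Prx* (0.91), which encodes a myelin protein of Schwann cells, *Pou3f1* (0.88), a transcription factor of myelinating Schwann cells, and *Anks1b* (0.88). For *Myoz2* they were *Myl1* (0.93), *Mylpf* (0.92) and *Tnnc2* (0.92), which encode myosin light chains and a troponin of the sarcomere. For *Sec24d* they were *Tmem39a* (0.95), *Mettl1* (0.94) and *Srpr* (0.93), and for *Mettl14* *Ankrd40* (0.89), *Tln2* (0.87) and *Ctcf* (0.86). Apart from *Synpo2* and *Pde5a*, the 6 genes were less alike, with 0.54 between *Usp53* and *Mettl14* and −0.36 between *Sec24d* and *Mettl14*.

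To ask whether loss of *SYISL* changed its host gene or the neighbours, UMIs were summed per library and compared between KO and WT (edgeR quasi-likelihood test, Benjamini-Hochberg adjustment over all genes tested, called at an adjusted p under 0.05). Over all kept cells *Synpo2* was 10.4 and 10.3 CPM in WT and 10.9 and 9.03 CPM in KO. Its log2 fold change was −0.01 (SE 0.11, 95% interval −0.28 to 0.26, edgeR adjusted p = 0.994). KO replicate 2 was the lowest and KO replicate 1 the highest of the 4, so the groups overlapped. Of the 6 genes, 0 were called, as were 0 of 20419 genes tested (0% called, 961 at an unadjusted p under 0.05, and 51 called by DESeq2, none of the 6 among them).

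The other 5 genes overlapped between genotypes as well. *Sec24d*, the nearest neighbour, was 136 and 157 CPM in WT and 133 and 157 CPM in KO (log2 fold change 0.03, SE 0.11). *Myoz2* was 7.02 and 4.12 CPM in WT and 6.13 and 7.93 CPM in KO (0.38, SE 0.28, 95% interval −0.32 to 1.09), the widest interval of the 6. The log2 fold changes of *Usp53*, *Pde5a* and *Mettl14* were −0.08 (SE 0.10), −0.01 (SE 0.11) and 0.01 (SE 0.09). None of the 6 had KO libraries on 1 side of both WT libraries, against 35.5% of all genes tested. By bulk RNA sequencing of E18.5 leg muscle, the study reported significantly higher *Myoz2* in KO fetuses. That was whole tissue from other samples, not dissociated cells. Outside its heterozygous crosses the study mated KO females with KO males, so the genotype of the mothers would differ there too. The fetuses compared here were littermates of heterozygous parents. The part of these differences was not tested.

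Of the 20 features next to *Synpo2*, 10 on each side, 16 had at least 10 UMIs, 14 were tested and 0 were called by edgeR, with 0 at an unadjusted p under 0.05. Libraries did not overlap for 2 of the 14, beside 35.5% of all genes tested. These were *1810037I17Rik*, between *Pde5a* and *Usp53*, and *Gm43569*, beyond *Pde5a*. The first was 183 and 186 CPM in WT and 192 and 194 CPM in KO, higher in both KO libraries (log2 fold change 0.11, SE 0.05, edgeR adjusted p = 0.946). The second was 2.58 and 2.67 CPM in WT and 2.45 and 2.50 CPM in KO, lower in both (−0.04, SE 0.12). The median log2 fold change of the 14 was 0.0067, beside −0.0039 for all genes tested.

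**Figure D4:**
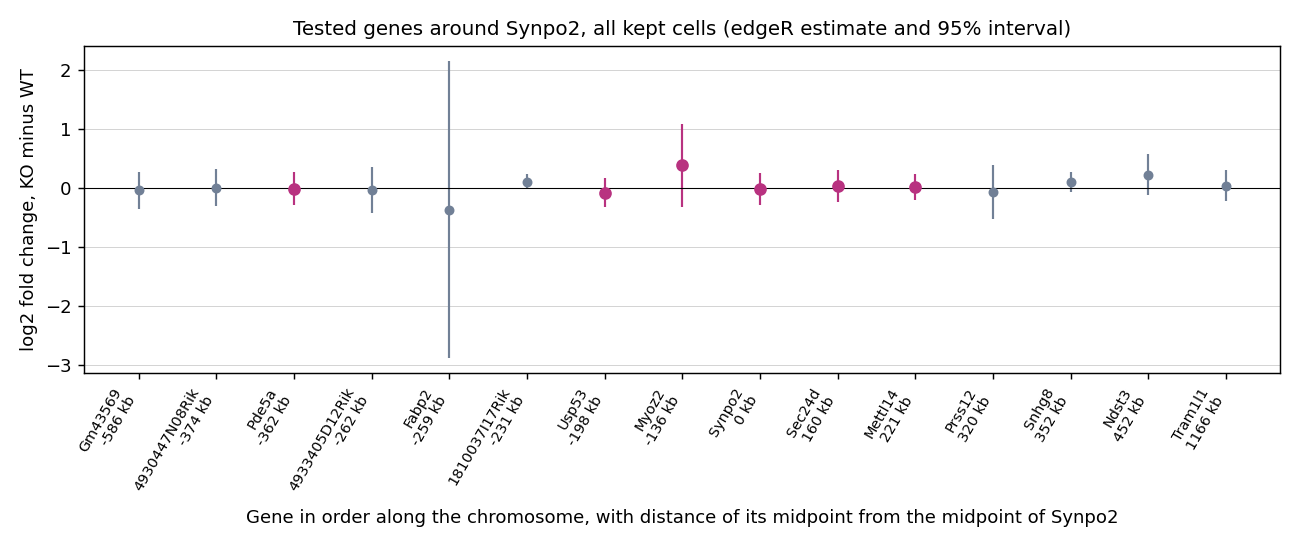
Log2 fold change, KO minus WT, over all kept cells for *Synpo2* and the 14 tested features around it (members in pink, others in grey), in chromosomal order with the distance of each midpoint from that of *Synpo2* in kb. Lines are edgeR 95% intervals, and every interval crosses 0.

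The same test was run in 15 classes and sub-classes with at least 50 cells in every library, which gave 78 pairs of a gene and a class. By edgeR, 0 of the 78 were called, beside 0.0181% of all gene and class pairs in the fit without the replicate block, and the lowest adjusted p was 0.459. Before adjustment, 4 pairs had a p under 0.05 (5.13%, beside 4% of all pairs). The libraries of the genotypes did not overlap in 18 pairs (23.1%, beside 32.4% of all pairs), with KO above in 8 and below in 10. These shares are near or below those of all genes.

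For *Synpo2* the log2 fold change was −0.05 (SE 0.09, 95% interval −0.24 to 0.15) in smooth muscle or pericyte-like cells and 0.13 (SE 0.14, −0.16 to 0.41) in vascular smooth muscle-like cells. In myogenic-like cells it was 0.08 (SE 0.14, −0.23 to 0.40) and in FAP-like cells 0.03. These intervals hold changes of up to about the size of their bounds in either direction. Of 12 classes tested for *Synpo2*, the libraries did not overlap in 1, chondrocyte-like cells, with 2.21 and 2.16 CPM in WT and 0 and 1.44 CPM in KO on 39 UMIs. The KO effect on *Synpo2* differed between smooth muscle or pericyte-like and myogenic-like cells by −0.13 (SE 0.14, edgeR interaction term). None of the 6 genes was called in that interaction (0% of 15148 genes called, 719 at an unadjusted p under 0.05).

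After thinning to 2000 UMIs, 1.65% and 1.80% of kept WT cells and 1.70% and 1.56% of kept KO cells had a *Synpo2* UMI. The groups overlapped, with a difference of −0.100 percentage points (exact two-sided permutation test over 6 arrangements, p = 0.667, smallest possible 0.3333).

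The 4 pairs at an unadjusted p under 0.05 involved 4 genes, and each missed the adjusted threshold. *Usp53* in mast-like cells was 23.2 and 20.8 CPM in WT and 41.1 and 43.6 CPM in KO, on 109 UMIs, higher in both KO libraries (log2 fold change 0.94, SE 0.27, edgeR adjusted p = 0.459). *Pde5a* in glial-like cells was 22.9 and 22.0 CPM in WT and 17.6 and 15.1 CPM in KO, lower in both (−0.44, SE 0.16). *Myoz2* in progenitor-like cells was 1.60 and 1.54 CPM in WT and 2.30 and 3.40 CPM in KO on 72 UMIs (0.90, SE 0.39). *Sec24d* in vascular smooth muscle-like cells was 87.8 and 89.6 CPM in WT and 113 and 111 CPM in KO (0.35, SE 0.17). In the class where it was highest, *Pde5a* stood at −0.17 on the log2 scale (SE 0.09, adjusted p = 0.970 by edgeR).

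**Figure D5:**
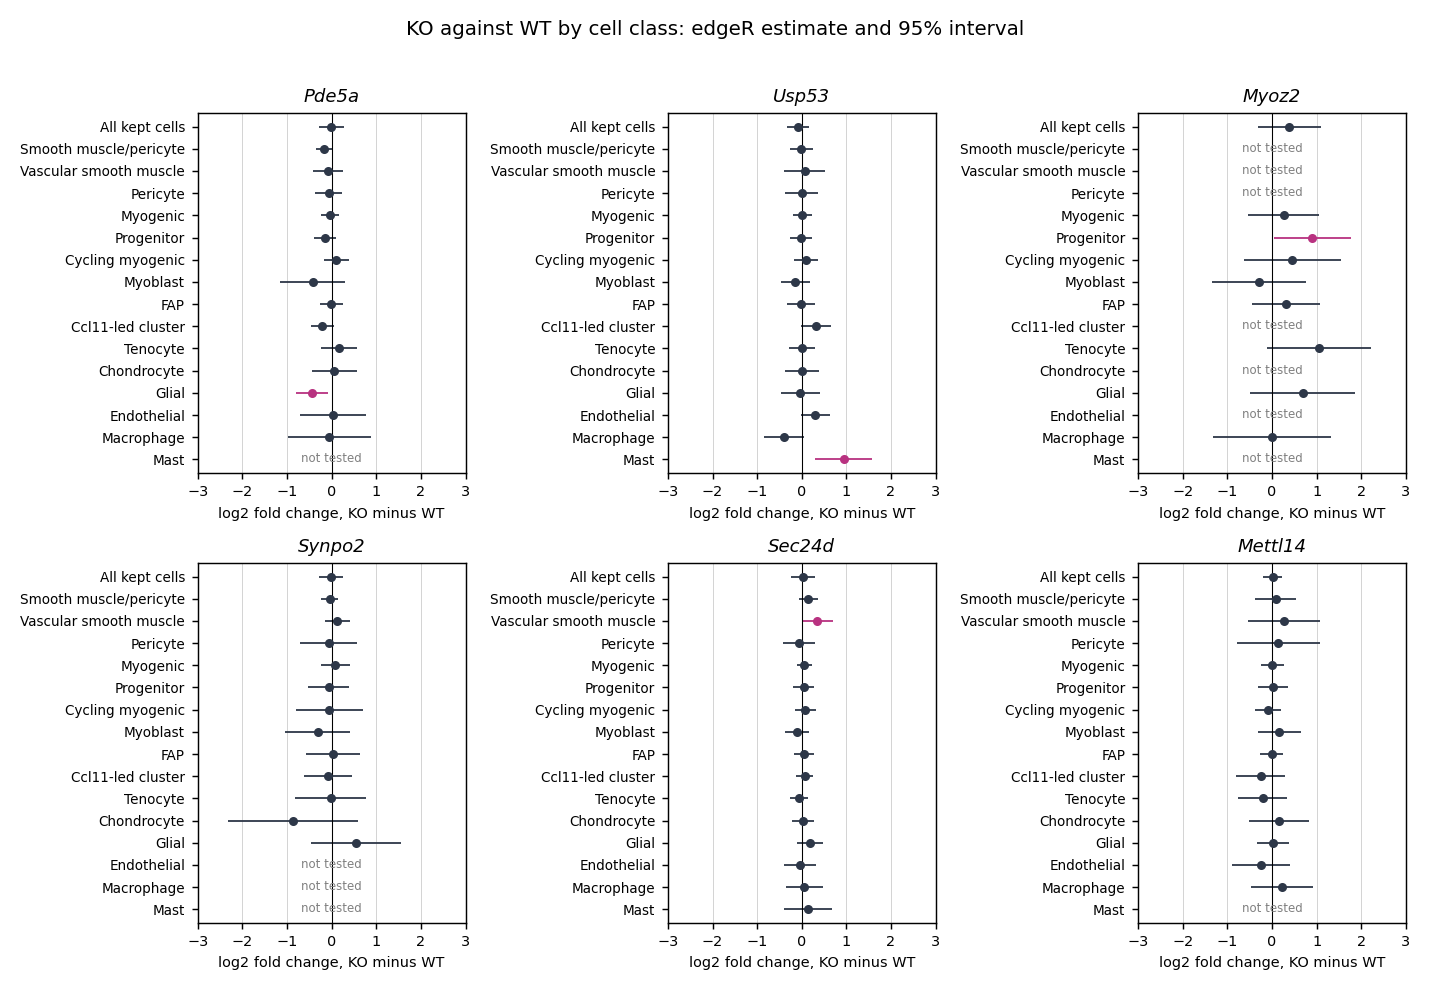
Log2 fold change, KO minus WT, of each of the 6 genes over all kept cells and in each class tested (points, edgeR; lines, 95% intervals; pink, unadjusted p under 0.05). Of 78 pairs within classes, 4 are pink and 0 pass the adjusted threshold, and the *Synpo2* intervals all cross 0.

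The partners of the 6 proteins were taken from lists of known members and not from how they moved. Of the 14 contractile genes of smooth muscle, all tested in smooth muscle or pericyte-like cells, 0 were called and 2 had a positive log2 fold change, with a median of −0.09 beside 0.002 for all genes there (23 of 12620 genes called, 689 at an unadjusted p under 0.05). *Acta2*, *Tagln*, *Cald1* and *Tpm1* had −0.02, −0.18, −0.09 and −0.06, and 13 of the 14 were highest in that class, which some of them had served to name. Of 21 listed genes of cyclic GMP signalling, the pathway of *Pde5a*, that the count table held, 17 were tested there, 0 were called and 11 were highest there. Their median was −0.04, with −0.10 for *Prkg1*, the cyclic GMP-dependent kinase, −0.09 for *Pde3a*, −0.02 for *Ppp1r12a* and −0.12 for *Gucy1a1*, a subunit of the nitric oxide receptor. The summed level of the 10 FAP markers in that class was 2707 and 2290 CPM in WT and 4119 and 3400 CPM in KO, higher in both KO libraries, and a subcluster of 97 cells within it was led by the fibroblast genes *Kera* and *Clec3b*. Their part in the contractile and cyclic GMP values was not tested.

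Z-disc partners of *Synpo2* and *Myoz2* were tested in 2 classes. In myogenic-like cells all 20 were tested and 0 were called, as were 0 of 14710 genes there by edgeR (547 at an unadjusted p under 0.05). Of the 20, 4 had an unadjusted p under 0.05, and log2 fold changes ran from −0.95 to 0.75 with a median of 0.04, with *Cryab* at 0.16, *Ppp3ca* at 0.07, *Flnc* at 0.01 and *Vcl* at −0.12. In smooth muscle or pericyte-like cells 13 were tested, 0 were called and 2 had an unadjusted p under 0.05, with a range of −0.84 to 0.47 and a median of −0.01, *Vcl* at −0.06 and *Cryab* at 0.08. For *Sec24d*, 15 of 16 genes of the COPII coat and its regulation were tested in chondrocyte-like cells, where 6 were highest, and 0 were called (median 0.01). Of all 13365 genes tested in that class, 0 were called by edgeR as well. In the COPII list *Creb3l2*, *Sec31a*, *Sec24a* and *Sar1a* had 0.00, −0.11, −0.01 and 0.10. For *Mettl14*, 18 of 18 genes that write, erase or read N6-methyladenosine were tested in glial-like cells and 0 were called (median 0.00), with *Igf2bp2*, *Ythdf3*, *Ythdc1* and *Fto* between −0.07 and 0.07. Among all 12823 genes tested in glial-like cells, edgeR also called 0. For *Usp53*, 7 of 12 tight junction genes were tested in glial-like cells, 0 were called and 0 were highest there. *Magi1* had −0.28 (SE 0.10), *Tjp1* −0.12 and *Cgnl1* 0.43, and the median was −0.11.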

How the data were processed

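Per the labels, reads were mapped to mm10 by Cell Ranger 7.2.0, and the authors deposited its raw counts of UMIs for every feature and called cell, 1 matrix a library. Whether intronic reads were counted is not given in the sources used here. A cell was kept if it had 1000 to 6000 genes, 1000 to 25000 UMIs and a mitochondrial share below 8%, and doublets were limited by these bounds alone (Scrublet removal was an alternative). Leiden clustering at resolution 0.3 (scanpy 1.11.5) used 2997 of 3000 variable genes, since *Synpo2*, *Myoz2* and *Usp53* were left out. Names are rebuilt. A cluster took a class name other than FAP from markers at 2-fold or more and found in 10% of its cells. At least 3 of that class's markers, and no fewer than the rest of its list, had to pass. Of the remaining clusters, those where at least 3 FAP markers reached 25% of their level in the highest cluster were called FAP-like, a looser rule, and clusters with competing markers stayed unnamed. Sub-classes took the name with the largest passing share of its list, from at least 3 markers at 1.5-fold. UMIs were summed per class and library and tested with edgeR 4.0.16 (quasi-likelihood, TMM, filterByExpr) in R 4.3.3. Beforehand the same code recovered known changes of 2-fold and 4-fold in simulated counts. Smaller changes, and changes in genes with few UMIs, were not simulated. The simulated counts gave every gene the same fixed spread, not the spread of these libraries. Only all kept cells, smooth muscle or pericyte-like cells and the interaction were simulated. DESeq2 1.42.0 was an alternative. Samples were grouped by the titles in the labels. Likeness was computed for genes that averaged 5 CPM or more. Named genes were the 6 members, neighbours with at least 10 UMIs that did not overlap between genotypes, the 5 or 3 most alike, and the 4 highest of each list, of which 1 is not reported here. The members and lists were chosen with earlier results of these data known.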

Additional observations from a re-analysis of the deposited data

How the results depend on the processing

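Under every alternative run (RLE factors, DESeq2, no filter on low counts, the replicate block, a looser cell filter, Scrublet doublets removed, resolution 1 and each library left out in turn), 0 of the 6 genes were called over all kept cells, in smooth muscle or pericyte-like cells, in myogenic-like cells or in the interaction, for which only doublet removal and leaving out libraries were run. Counts over all genes were less stable. Over all kept cells 0 genes were called, with 51 under DESeq2 and 0 to 58 when 1 library was left out, where a lone library is assumed to vary like the other group (3 without WT replicate 2, 9 without KO replicate 1 and 58 without KO replicate 2). In smooth muscle or pericyte-like cells the 23 calls became 134 with no filter, 161 with the replicate block, 15 under DESeq2, 8 with doublets removed, 3 with the looser filter and 94 (without WT replicate 2 or KO replicate 1) to 157 (without WT replicate 1) without 1 library, with 98 without KO replicate 2. In myogenic-like cells 0 became 1 with the replicate block and 0 to 6 without 1 library (5 and 3 without WT replicates 1 and 2, 6 without KO replicate 1). In the interaction 0 became 100, 62, 66 and 58 without WT replicates 1 and 2 and KO replicates 1 and 2. The block also moved the calls in other classes, from 0 to 100 in glial-like, 115 in the *Ccl11*-led, 66 in chondrocyte-like, 42 in macrophage-like, 13 in cycling myogenic and 7 in tenocyte-like cells, from 1 to 30 in vascular smooth muscle-like, from 2 to 4 in endothelial-like and from 7 to 0 in mast-like cells. The labels give both genotypes the same replicate numbers with no shared origin, so the block pairs libraries by number only. Deviations of the replicates 1 of both genotypes correlated across genes at 0.358 over all kept cells and 0.0315 to 0.326 within classes. The cause of these moves was not tested.

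Small log2 fold changes changed sign. That of *Synpo2* over all kept cells was 0.011 with the looser filter, and in smooth muscle or pericyte-like cells 0.024 with doublets removed. Without 1 library each, *Synpo2* ranged from −0.14 to 0.11 over all kept cells, −0.14 to 0.036 in smooth muscle or pericyte-like cells, −0.030 to 0.28 in vascular smooth muscle-like cells and −0.0048 to 0.17 in myogenic-like cells. That of *Myoz2* over all kept cells went from 0.38 to between 0.045 (without WT replicate 2) and 0.83 (without WT replicate 1). Over all kept cells the ranges were −0.15 to 0.12 for *Pde5a*, −0.22 to 0.049 for *Usp53*, −0.10 to 0.15 for *Sec24d* and −0.067 to 0.099 for *Mettl14*. *Usp53* in glial-like cells ranged from −0.36 to 0.25, and *Myoz2* in myogenic-like cells from −0.53 (without KO replicate 2) to 0.78. The difference in the share of cells with *Synpo2* was 0.0282 percentage points after thinning to 1000 UMIs. As ratios of shares of cells with a UMI at 2000 UMIs, *Synpo2* in smooth muscle or pericyte-like over myogenic-like cells went from 12.8 to 9.25, *Usp53* in glial-like over FAP-like cells from 7.45 to 4.60, *Mettl14* in the same from 2.70 to 3.20, and *Sec24d* in chondrocyte-like over FAP-like cells from 1.55 to 1.38 (1.43 at resolution 1). With the looser filter, chosen after seeing the data, 4 tested neighbours did not overlap in place of 2 (35.5% of all genes with the main filter). Of 298 alternative values, 254 kept their direction and side of the threshold or moved by less than the spread. With 2 libraries a genotype, only effects large against the spread of these libraries could be called.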
